A study of Mus musculus with 90 samples.

Results

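The 2 h rechallenge of YUMM2.1 cells after 3 weeks of IFNγ is described here from 6 of the 90 bulk RNA samples in the series. The members were taken from the sample labels alone: the 3 samples collected 2 h after fresh IFNγ at week 3 and the 3 samples collected at 0 h of the same week. YUMM2.1 is an established mouse melanoma line, grown as 1 line with no host. Cells of both groups had been kept in IFNγ at 50 IU/mL, and both were drawn from cultures in RPMI-1640 with 10% serum that had been plated for the last 48 h. The 2 h group then received fresh IFNγ at 50 IU/mL and the 0 h group did not. Further groups of the same line are used for comparison, each with 3 samples. They are chronic IFNγ cells at 24 h of rechallenge in week 3 and cells kept for 3 weeks in bovine serum albumin (BSA) in place of IFNγ. Others are naive cells at 0, 2 and 24 h of a first IFNγ exposure and chronic IFNγ cells at 0, 2 and 24 h in weeks 1 and 2. No group received BSA or medium alone for 2 h, so a response to the fresh addition itself cannot be told apart from a response to IFNγ.

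IFNγ binds its receptor and activates the kinases JAK1 and JAK2, and the signal acts at GAS elements in target genes and raises IRF1, which then acts with other factors on interferon-stimulated response elements (ISRE). The products of the target genes include antiviral proteins, guanylate-binding proteins (GBPs), immunity-related GTPases (IRGs), chemokines, the antigen presentation machinery and the feedback inhibitors SOCS1 and SOCS3. Immediate-early genes form another fast class. They encode factors such as EGR1, JUNB and MYC and secreted proteins such as CCN1 and HB-EGF, are switched on within an hour by growth factors, serum, adhesion and stress through MAPK, SRF and other pathways, and usually fall back soon after.

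Depth was uneven. The 2 h samples held 1303379 to 1403265 counts, while the 0 h samples held 1617485 (n1), 969124 (n2) and 274719 (n3), the last being the lowest total of the 45 YUMM2.1 samples. Levels are given as CPM, the counts of a gene scaled to one common library total after TMM normalisation, and 54 of the 104 genes called below had fewer than 10 counts in 0 h n3. Markers of the melanocyte lineage were partly present: Sox10 was at 21 to 54.4 CPM and Gpnmb at 73.6 to 140.5 CPM, but 7 of 14 markers, Tyr, Tyrp1 and Mlana among them, had no count in any of the 6 samples. Colon epithelium markers summed to at most 1.94 CPM, with Epcam, Krt8 and Krt18 at 0. Endothelial markers summed to 275 to 382 CPM at 0 h and 283 to 318 CPM at 2 h, nearly all of it Pecam1, with 3 of 5 at 0, Cdh5 among them. Fibroblast markers summed to 96.1 to 114 CPM at 0 h and 87.3 to 179 CPM at 2 h, led by Col3a1, with Dcn, Lum and Thy1 at 0. Haematopoietic markers summed to 9.78 to 25.0 CPM at 0 h and 5.77 to 11 CPM at 2 h, with Cd3e and Itgam among those at 0. In bulk RNA, fewer cells of a type and less RNA per cell cannot be told apart.

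At 2 h, 104 of 9589 genes tested passed an adjusted p of 0.05, with 84 higher and 20 lower (edgeR quasi-likelihood test across the 45 samples, Benjamini-Hochberg adjustment). This was 1.08% of all genes tested, 0.876% higher and 0.209% lower. The genes were split by gene lists into 33 interferon genes (32 higher and 1 lower), 16 immediate-early genes (15 higher and 1 lower) and 55 other genes (37 higher and 18 lower). The interferon list held 138 tested genes with a median log2 fold change of 0.59, and the immediate-early list held 61 with a median of 0.74, against 0.03 over all genes tested. Both lists were compiled by hand with earlier results of these data known, which may favour this split and these medians. In 96 of the 104 genes the 3 CPM values at 2 h did not overlap the 3 at 0 h, a separation that 12.7% of all genes tested showed (7.85% above and 4.87% below). Summed over the interferon list, the level was 12920 to 13710 CPM at 0 h, 19040 to 24060 CPM at 2 h and 12240 to 13680 CPM at 24 h. Summed over the immediate-early list, it was 1486 to 1554, 2241 to 2707 and 1436 to 1644 CPM. The 8 called genes whose values overlapped were Mgea5, Wars, Cxcr2, Tk1, Idi1, Nudt16l1, Nr4a1 and Mtg1.

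**Figure D1:**
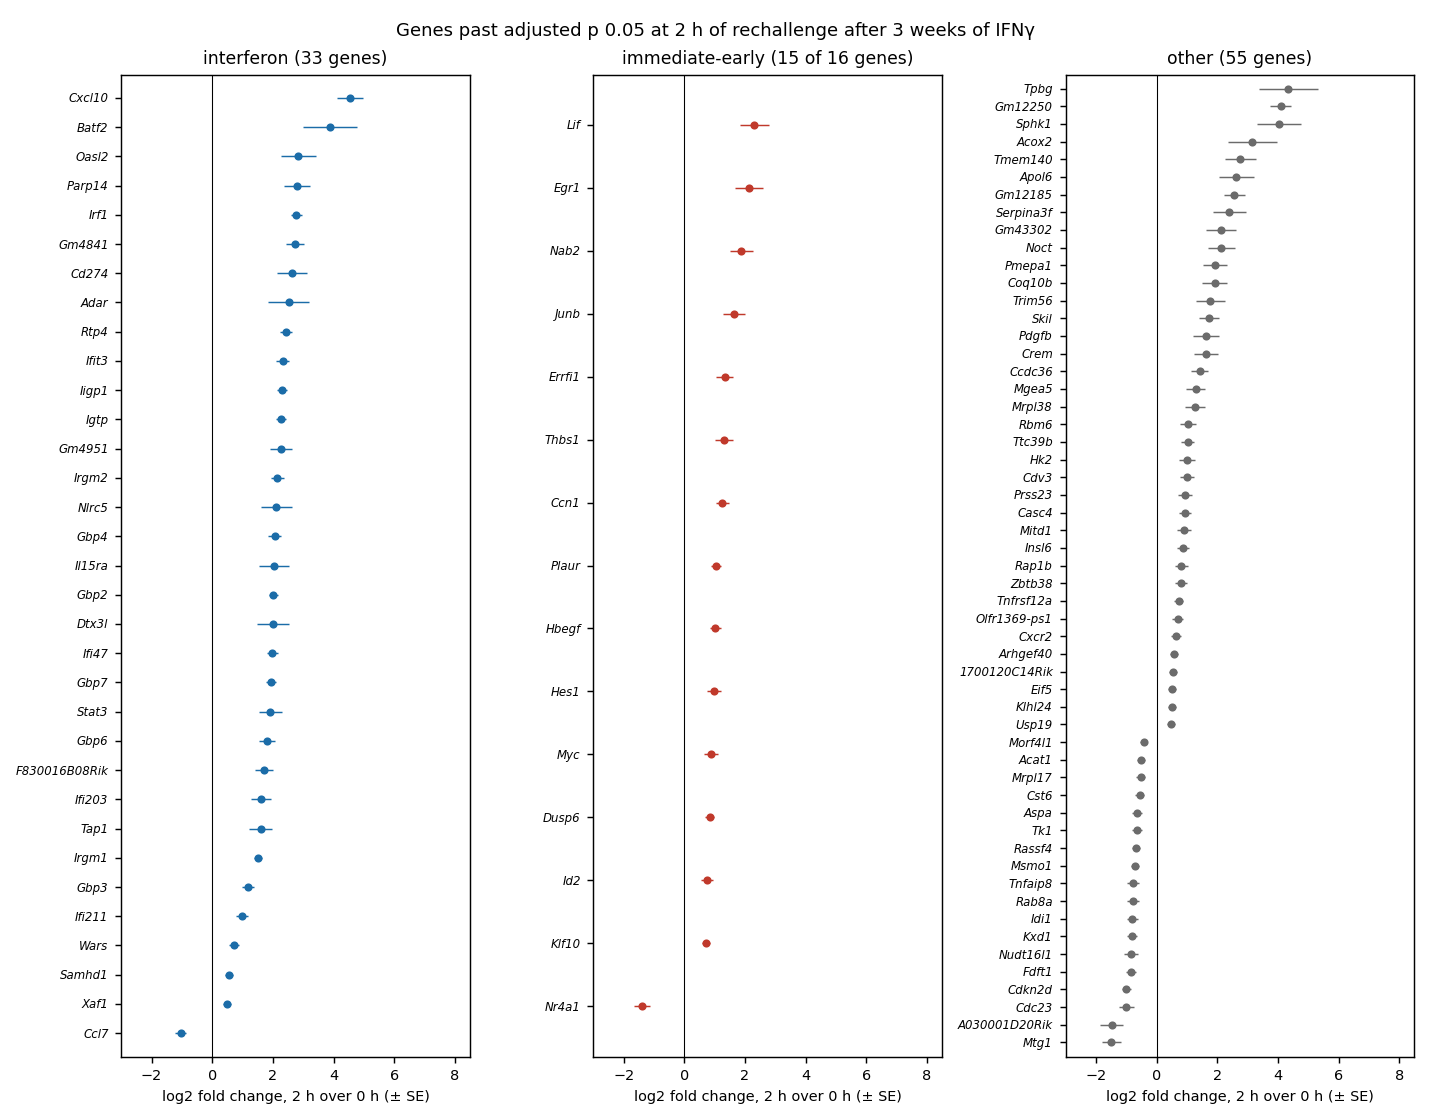
Log2 fold change of 2 h over 0 h at week 3 (x axis) with its standard error (bars) for 103 of the 104 genes past the threshold, in panels for 33 interferon, 15 of 16 immediate-early and 55 other genes. Nearly all interferon and immediate-early genes lie to the right of 0, while the other genes lie on both sides.

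The 32 interferon genes that rose were Cxcl10, Batf2, Oasl2, Parp14, Irf1, Gm4841, Cd274, Adar, Rtp4, Ifit3, Iigp1, Igtp, Gm4951, Irgm2, Nlrc5, Gbp4, Il15ra, Gbp2, Dtx3l, Ifi47, Gbp7, Stat3, Gbp6, F830016B08Rik, Ifi203, Tap1, Irgm1, Gbp3, Ifi211, Wars, Samhd1 and Xaf1. Their log2 fold changes ran from 0.49 to 4.53, with a median of 2.05. The interferon gene that fell was Ccl7, a monocyte chemokine. The 15 immediate-early genes that rose included Lif, Egr1, Nab2, Junb, Errfi1, Thbs1, Ccn1, Plaur, Hbegf, Hes1, Myc, Dusp6, Id2 and Klf10, with a median log2 fold change of 1.25. Nr4a1, an orphan nuclear receptor, fell.

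The 37 other genes that rose were Tpbg, Gm12250, Sphk1, Acox2, Tmem140, Apol6, Gm12185, Serpina3f, Gm43302, Noct, Pmepa1, Coq10b, Trim56, Skil, Pdgfb, Crem, Ccdc36, Mgea5, Mrpl38, Rbm6, Ttc39b, Hk2, Cdv3, Prss23, Casc4, Mitd1, Insl6, Rap1b, Zbtb38, Tnfrsf12a, Olfr1369-ps1, Cxcr2, Arhgef40, 1700120C14Rik, Eif5, Klhl24 and Usp19, with a median log2 fold change of 1.26. The 18 other genes that fell were Morf4l1, Acat1, Mrpl17, Cst6, Aspa, Tk1, Rassf4, Msmo1, Tnfaip8, Rab8a, Idi1, Kxd1, Nudt16l1, Fdft1, Cdkn2d, Cdc23, A030001D20Rik and Mtg1.

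Several of these genes were neighbours. Of the 104 genes, 30 lay in 12 groups with gaps under 500 kb (GRCm38). The share of all genes tested that lie this close was not counted. Some groups held few of the genes tested in their window: Mrpl38 and Sphk1 2 of 10, Cdc23 and Egr1 2 of 6 (1 higher), and Ccdc36 and Usp19 2 of 4. The groups named next held, in order, 3 of 6, 3 of 3, 4 of 4, 3 of 3, 3 of 4, 2 of 2 and 2 of 3. An IRG group on chr11:48861968-49096974 held Irgm1, Gm12185 and Ifi47, and a further one on chr11:58187739-58222782 held Gm12250, Igtp and Irgm2. A separate IRG group held Gm4951, Gm4841, F830016B08Rik and Iigp1. GBP groups lay on chr3:142530342-142638008 (Gbp7, Gbp3 and Gbp2) and chr5:105115767-105293698 (Gbp4, Gm43302 and Gbp6). Parp14 and Dtx3l stood together on chr16:35832874-35939151, and Insl6 lay near Cd274 on chr19:29321344-29388095. Some genes of these families, such as Tgtp1 and Tgtp2, are near-identical copies, and how reads were divided among paralogues or between neighbours such as Insl6 and Cd274 was not tested.

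Promoter sequence was held for 65 of the 104 genes (RefSeq, GRCm38.p6, 250 bases before to 50 after each start, 27025 genes in all). The stretches below are shown as examples of 3 motifs in genes that rose, the first 4 from interferon genes and the last 3 from other genes. All run 5′ to 3′ on the strand of the gene and end before its start. Capitals mark the GAS motif TTCNNNGAA in Irf1, the ISRE core, a pair of GAAA half-sites with NN between them (on either strand), in the next 5, and the AP-1 motif TGANTCA in the last. Matches to other motifs in the same stretches are left unmarked. Among them are a GAS match in Irgm2, a GAS match in Sphk1 and an AP-1 match in Gbp2.
Irf1, chr11:53769879-53769977 (+): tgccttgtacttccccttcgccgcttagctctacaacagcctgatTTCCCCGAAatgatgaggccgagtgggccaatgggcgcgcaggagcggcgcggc
Irgm2, chr11:58214868-58214967 (+): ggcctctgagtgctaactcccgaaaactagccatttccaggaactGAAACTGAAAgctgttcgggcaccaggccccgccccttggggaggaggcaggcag
Gbp2, chr3:142620559-142620658 (+): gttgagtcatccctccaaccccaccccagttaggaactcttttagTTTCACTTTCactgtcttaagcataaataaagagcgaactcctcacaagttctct
Cxcl10, chr5:92349048-92349139 (-): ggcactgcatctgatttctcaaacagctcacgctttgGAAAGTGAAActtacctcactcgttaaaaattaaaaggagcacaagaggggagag
Gm12250, chr11:58183707-58183842 (+): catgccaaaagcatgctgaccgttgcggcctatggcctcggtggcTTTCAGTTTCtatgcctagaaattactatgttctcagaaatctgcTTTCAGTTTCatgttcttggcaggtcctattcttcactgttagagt
Tmem140, chr6:34863038-34863137 (+): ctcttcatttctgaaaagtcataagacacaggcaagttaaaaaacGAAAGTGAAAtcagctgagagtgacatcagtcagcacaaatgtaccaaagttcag
Sphk1, chr11:116531742-116531836 (+): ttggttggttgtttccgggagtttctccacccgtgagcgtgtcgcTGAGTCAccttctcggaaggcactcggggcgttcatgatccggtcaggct

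Both strands of the 300 bases were searched and overlaps between motifs were allowed. The ISRE core was present in 10 of 21 interferon genes that rose, 0 of 8 immediate-early genes that rose, 4 of 23 other genes that rose (Gm12185, Gm12250, Mitd1 and Tmem140) and 0 of 13 genes that fell, against 3.84% of the 7284 tested genes with a promoter and 3.99% of all genes with one. The GAS motif was present in 6, 0, 6 and 0 of these genes, against 7.85% of tested genes and 9.55% of all. AP-1 was present in 7, 2, 4 and 1, against 5.85% and 8.97%. The cAMP-response motif TGACGTCA was present in 0, 1, 1 and 0, against 3.79% and 2.03%, and the EGR motif GCGNGGGCG in 1, 1, 4 and 2, against 12.4% and 6.27%. Motifs named as the CArG box, the NF-κB motif and the sterol element (ATCAC, any base, CCAC) were present in 1, 7 and 0 of the 65 promoters, against 1.54%, 5.66% and 0.124% of tested genes and 1.81%, 5.14% and 0.27% of all. A match is a description of letters in the window and not a measured site.

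Irf1, whose product drives later interferon genes, rose to nearly the same level in all 3 samples. Its level was 29.9, 31.0 and 38.5 CPM at 0 h and 218, 216 and 216 CPM at 2 h, and the groups lay far apart. The log2 fold change was 2.78 ± 0.19 (SE, n = 3 per group, adjusted p = 7.78e-15, edgeR), and at 24 h the level was 32.8 to 38.7 CPM. Batf2, an AP-1 family factor induced by interferon, had 0, 2 and 0 counts at 0 h and 18, 20 and 12 at 2 h. The ratio of its summed counts was 16.8 (95% counting interval 4.41 to 142.5). Nlrc5, the transactivator of MHC class I genes, had 9.16, 4.0 and 0 CPM at 0 h and 16.9, 36.3 and 26.0 CPM at 2 h (log2 fold change 2.12 ± 0.50, adjusted p = 0.0171, edgeR). Nlrc5 lost its call in 4 of 11 alternative fits, among them the one without 0 h n3 (adjusted p = 0.061, edgeR). Stat3 rose by 1.92 ± 0.38 on the log2 scale from 10.4, 17.0 and 24.5 CPM to 57.8, 75.1 and 36.8 CPM. With Irf1, these made 4 of the 8 tested interferon transcription factors.

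None of the 5 tested JAK-STAT feedback inhibitors passed against 0 h. Their median log2 fold change was 1.07, and 3 of the 5 were positive. Usp18 changed most, from a mean of 0.667 CPM to 6.27 CPM, with separated groups (3.01 ± 0.99, adjusted p = 0.16, edgeR). Socs1 had 9.78, 10.0 and 0 CPM at 0 h and 14.8, 27.9 and 10.8 CPM at 2 h (log2 fold change 1.07 ± 0.42, adjusted p = 0.277, edgeR). Socs3 had 6.11, 7.01 and 10.5 CPM at 0 h and 16.2, 24.0 and 10.1 CPM at 2 h, with overlapping groups (1.24 ± 0.53, adjusted p = 0.318, edgeR).

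The chemokine and ligand genes held the interferon gene with the largest fold change at 2 h. Cxcl10, which draws activated T cells, had 4.89, 1.00 and 3.5 CPM at 0 h and 67.0, 86.2 and 85.1 CPM at 2 h, every 2 h value far above every 0 h value. Its log2 fold change was 4.53 ± 0.43 (adjusted p = 8.46e-11, edgeR), although the 0 h values rest on 8, 1 and 1 counts. Cd274, which encodes PD-L1, rose from 4.89, 2.00 and 7.01 CPM to 25.4, 22 and 30.3 CPM (2.63 ± 0.50, adjusted p = 0.00114, edgeR) and stood at 3.52, 1.25 and 1.15 CPM at 24 h. Il15ra, which presents interleukin-15 to lymphocytes, rose by 2.04 ± 0.49 and lost its call in 5 of 11 alternative fits. Ccl7 went the other way, from 111, 126 and 102 CPM to 75.5, 46.0 and 46.2 CPM, with a log2 fold change of -1.04 ± 0.19 (adjusted p = 0.000474, edgeR). These were 3 higher and 1 lower of 12 tested in this list.

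Of the 12 tested IRG genes, which encode GTPases that attack the vacuoles of intracellular pathogens, 8 rose. Iigp1 had 240, 229 and 252 CPM at 0 h and 1252, 983 and 1302 CPM at 2 h (log2 fold change 2.30 ± 0.16, adjusted p = 8.03e-15, edgeR). Igtp had 155, 130 and 116 CPM at 0 h and 658, 580 and 765 CPM at 2 h (2.27 ± 0.17). Irgm2 had 40.3, 35 and 17.5 CPM at 0 h and 163, 148 and 154 CPM at 2 h (2.15 ± 0.21). All 3 were fully separated, and Iigp1 was at 206 to 269 CPM in the 24 h samples, a range that spans its 0 h values. Gm4841 and Gm4951, further genes of the family, rose by 2.73 ± 0.30 and 2.27 ± 0.37. Tgtp1 and Tgtp2, which are near-identical copies, had mean levels of 410 and 880 CPM at 0 h and 1607 and 2578 CPM at 2 h, but their adjusted p values were 0.103 and 0.0821 (edgeR).

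Among the GBP genes, GTPases that coat pathogen membranes, 5 of 9 tested rose. Gbp2 had 129, 118 and 112 CPM at 0 h and 494, 450 and 533 CPM at 2 h, with a log2 fold change of 2.02 ± 0.14 (adjusted p = 7.78e-15, edgeR). Gbp7 had 78.2, 73.1 and 98.1 CPM at 0 h and 296, 315 and 304 CPM at 2 h (1.93 ± 0.16). Gbp3 changed least of the 5, from 47.6, 49.0 and 49.1 CPM to 110, 111 and 109 CPM (1.18 ± 0.20), and its replicates hardly differed within either group.

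Parp14, a mono-ADP-ribosyltransferase induced by interferon, had 5.50, 4.0 and 14 CPM at 0 h and 31.0, 58.3 and 38.2 CPM at 2 h. The groups did not overlap and the log2 fold change was 2.80 ± 0.44 (adjusted p = 3.91e-05, edgeR). At 24 h Parp14 was at 2.64, 8.11 and 6.33 CPM, within the range of 0 h or below it. Its neighbour Dtx3l, a ubiquitin ligase that pairs with PARP9, rose by 1.99 ± 0.53 but lost its call in 5 of 11 alternative fits. They were the 2 calls among 7 tested genes of the list of PARPs and their partners, and Parp14 was the single PARP called. All 7 had positive log2 fold changes, with a median of 1.32, and 5 had separated groups. Parp10 and Parp12 were among these, with log2 fold changes of 1.85 ± 0.67 and 1.32 ± 0.57 (adjusted p = 0.219 and 0.324, edgeR). In the comparison of 2 h with 24 h, 4 of the 7 were higher at 2 h.

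Antiviral effectors gave 6 of 22 tested. Rtp4 had 31.2, 24.0 and 17.5 CPM at 0 h and 150, 128 and 154 CPM at 2 h (log2 fold change 2.43 ± 0.20, adjusted p = 1.63e-12, edgeR). Ifit3, which binds foreign RNA with other IFIT proteins, had 17.7, 32.0 and 21 CPM at 0 h and 123, 95.2 and 134 CPM at 2 h (2.32 ± 0.23). Oasl2 went from 6, 2 and 0 counts to 27, 23 and 34 counts (2.84 ± 0.58). Adar, the editor of double-stranded RNA, went from 7, 0 and 0 counts to 10, 30 and 18 and lost its call in 6 of 11 alternative fits. Samhd1, which cleaves deoxynucleotides, and Xaf1, a pro-apoptotic factor, rose by 0.56 ± 0.14 and 0.49 ± 0.12, and each lost its call in 5 of the 11.

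The remaining groups of interferon genes showed few calls at 2 h. In MHC class I presentation 1 of 17 tested genes passed: Tap1, the peptide transporter, rose from 18.3, 21 and 24.5 CPM to 52.2, 83.6 and 49.8 CPM (log2 fold change 1.60 ± 0.38, adjusted p = 0.0182, edgeR). The median of that list was 0.25, and Tap1 lost its call in 3 of 11 alternative fits. No gene passed among 4 of MHC class II and 7 of the ISG15 and ubiquitin pathway. Of 14 nucleic acid sensors and PYHIN genes, Ifi203 and Ifi211 passed, and of 22 metabolic, complement and death genes, Wars, the tryptophanyl-tRNA synthetase, passed with overlapping groups (81.2, 91.1 and 42.1 CPM at 0 h, 138, 161 and 86.6 CPM at 2 h) and lost its call in 5 of 11 alternative fits.

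**Figure D2:**
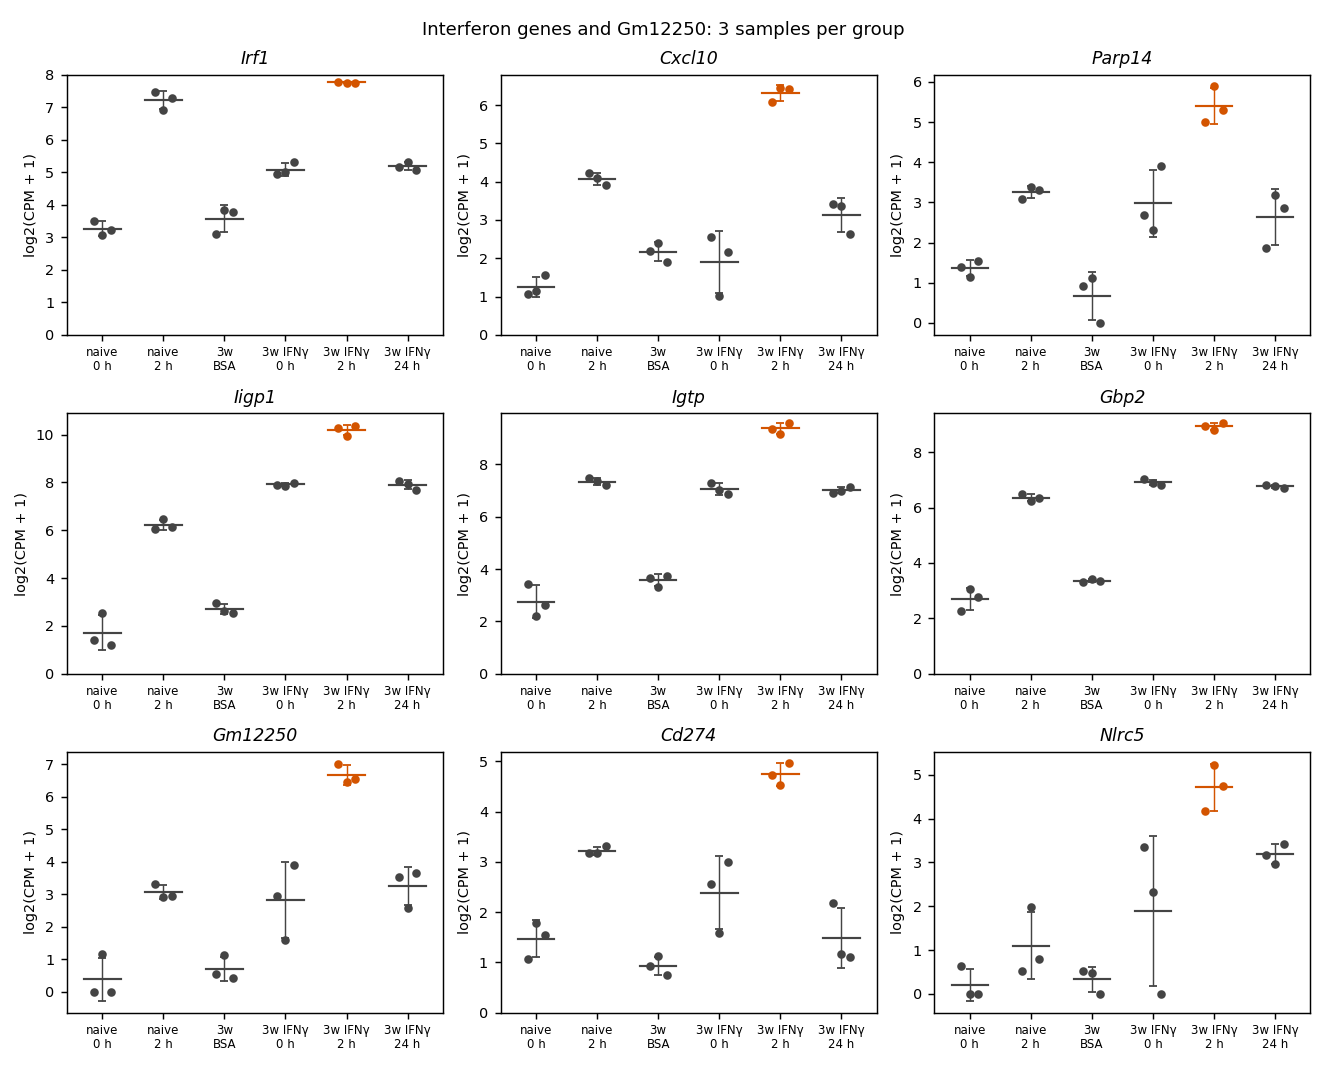
Levels of 9 genes as log2(CPM + 1) in each sample of 6 groups, with 3 points per group, a line at the mean and bars of 1 SD. The 2 h samples of week 3 (orange) stand above the 0 h and 24 h samples of the same week in the panels of Irf1, Cxcl10, Parp14, Iigp1, Igtp, Gbp2, Gm12250, Cd274 and Nlrc5.

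The immediate-early genes rose from low to moderate levels. Egr1, a zinc-finger factor of the serum and MAPK response, had 12.2, 4.0 and 3.5 CPM at 0 h and 29.6, 54.4 and 22.4 CPM at 2 h (log2 fold change 2.14 ± 0.46, adjusted p = 0.00571, edgeR). Egr1 lost its call in 3 of 11 alternative fits. Nab2, the corepressor of EGR proteins, had 11, 10.0 and 10.5 CPM at 0 h and 31.0, 61.5 and 23.8 CPM at 2 h (1.88 ± 0.38). Klf10 rose by 0.71 ± 0.13. These were 3 of 7 tested genes of the EGR, KLF and NR4A list, and Nr4a1 fell within the same list from 47.6, 33.0 and 17.5 CPM to 10.6, 18.1 and 13.0 CPM (-1.39 ± 0.27).

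Junb, an AP-1 subunit, had 14.1, 7.01 and 10.5 CPM at 0 h and 40.2, 25.9 and 38.2 CPM at 2 h (log2 fold change 1.65 ± 0.36, adjusted p = 0.00712, edgeR). It was the single call among 5 tested AP-1 and ATF genes. Jun had 30.6, 43.0 and 42.1 CPM at 0 h and 33.9, 51.2 and 36.8 CPM at 2 h, with overlapping groups (0.13 ± 0.30, adjusted p = 0.911, edgeR). Fos, Atf3 and Dusp1 were too low to be tested. Fos had no count in the 0 h samples, 4 to 10 counts in the 2 h samples and 0 to 4 counts in the 24 h samples. Atf3 had 0 to 2, 2 to 7 and 0 to 1 counts, and Dusp1 0 to 3, 0 to 3 and 0 to 1.

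Secreted and matrix genes gave 5 calls among 9 tested. Lif, a STAT3-activating cytokine, had 8.55, 10.0 and 7.01 CPM at 0 h and 35.3, 71.9 and 25.2 CPM at 2 h (log2 fold change 2.31 ± 0.49, adjusted p = 0.00456, edgeR). Thbs1, a matrix glycoprotein, had 46.4, 63.1 and 38.5 CPM at 0 h and 117, 176 and 88.7 CPM at 2 h (1.31 ± 0.30). Ccn1, a matricellular protein induced by serum and stretch, had 24.4, 27.0 and 31.5 CPM at 0 h and 62.0, 58.3 and 68.5 CPM at 2 h (1.25 ± 0.21, adjusted p = 0.000186, edgeR). Plaur, the urokinase receptor, had 103, 99.1 and 87.6 CPM at 0 h and 229, 163 and 221 CPM at 2 h (1.05 ± 0.16, adjusted p = 3.76e-05, edgeR). Ccn1 and Plaur were separated with little spread, whereas Lif and Thbs1 were highest in 2 h n2.

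In the list of MAPK feedback genes and EGFR ligands, 3 of 13 tested rose. Hbegf, an EGFR ligand, had 69.0, 52.0 and 66.6 CPM at 0 h and 119, 137 and 124 CPM at 2 h (log2 fold change 1.02 ± 0.18, adjusted p = 0.000295, edgeR). Dusp6, the ERK phosphatase, had 112, 102 and 66.6 CPM at 0 h and 192, 167 and 175 CPM at 2 h (0.83 ± 0.15). Errfi1, which restrains EGFR, had 15.9, 20.02 and 10.5 CPM at 0 h and 38.1, 50.5 and 36.8 CPM at 2 h (1.33 ± 0.28). All 3 groups of values were separated. Hes1, Myc and Id2 rose by 0.96 ± 0.23, 0.87 ± 0.23 and 0.75 ± 0.20, and each lost its call in 6 or 7 of 11 alternative fits. No gene passed among 15 tested genes of mRNA decay, kinases and growth arrest, where the median was 0.735, nor among 9 of NF-κB feedback, where Nfkbia had 23.2, 24.0 and 14 CPM at 0 h and 23.3, 41.5 and 30.3 CPM at 2 h (0.53 ± 0.30, adjusted p = 0.502, edgeR), nor among 13 of SRF and the actin cytoskeleton.

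The immediate-early calls depended on which sample was left out. Of the 15 genes that rose, 7 were highest in 2 h n2, 4 in n1 and 4 in n3. Without 2 h n2, 7 immediate-early genes passed, without 0 h n1 8 and without 0 h n2 9, and with the shallow 0 h n3 left out 14 of the 16 immediate-early calls were kept. Interferon genes that rose numbered between 22 and 32 over the 6 fits that left out 1 sample. Other genes that rose numbered 19 without 0 h n1 and 16 without 0 h n2, and all calls together 60 and 64. A fit of the 2 compared groups alone called 38 genes in all, 5 of them immediate-early genes that rose. Genes called in each of the 11 alternative fits were 19 interferon genes, 3 immediate-early genes (Ccn1, Hbegf and Plaur) and 5 other genes (Gm12250, Gm12185, Tmem140, Sphk1 and Cdkn2d).

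Among the other genes that rose, several are known as interferon targets that the lists did not hold. Gm12250, an IRG family gene also known as Irgb10, had 6.72, 2.00 and 14 CPM at 0 h and 127, 86.2 and 91.6 CPM at 2 h (log2 fold change 4.09 ± 0.34, adjusted p = 1.63e-12, edgeR). Gm12185 had 10.4, 14 and 31.5 CPM at 0 h and 74.0, 78.4 and 108 CPM at 2 h (2.56 ± 0.34). Gm43302, which lies in the GBP group of chromosome 5, rose from 28.7, 46.0 and 17.5 CPM to 195, 60.2 and 190 CPM (2.14 ± 0.49), with n2 apart from the other 2 h samples and the call lost in 5 of 11 alternative fits. Apol6 and Serpina3f rose by 2.63 ± 0.57 and 2.39 ± 0.55, and Tmem140 by 2.76 ± 0.52. Apol6 and Serpina3f each lost their call in 3 of 11 alternative fits. When class was set by response in naive cells in place of the lists, 29 of the 84 genes that rose had also risen at 2 or 24 h in naive cells: 22 interferon genes, Thbs1, and Gm12250, Gm12185, Gm43302, Apol6, Serpina3f and Insl6. None of the 20 genes that fell passed in naive cells. At 24 h in naive cells 0.886% of all genes tested passed, 0.855% higher and 0.0313% lower.

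The rest of this class had other known roles. Sphk1, which makes sphingosine-1-phosphate, had 1, 1 and 0 counts at 0 h and 15, 21 and 18 at 2 h, a ratio of 18.1 (95% counting interval 4.78 to 153.6). Tpbg, a Wnt-modulating surface glycoprotein, and Acox2, a peroxisomal oxidase, had summed counts of 1 and 2 at 0 h and 37 and 30 at 2 h, with ratios of 24.9 (4.19 to 1008) and 10.1 (2.56 to 87.0), and lost their call in 4 and 7 of 11 alternative fits. Tpbg was at 2.76 to 4.68 CPM in the 3 BSA samples of week 3, above every one of its 0 h values. Pmepa1 and Skil, feedback inhibitors of TGFβ signalling, rose by 1.93 ± 0.40 and 1.73 ± 0.32 and were 2 of 14 tested genes of that pathway. Pmepa1 had 6.72, 18 and 14 CPM at 0 h and 29.6, 74.5 and 31.7 CPM at 2 h, again highest in n2, and lost its call in 3 of 11 alternative fits. Noct, a circadian phosphatase, and Coq10b, a mitochondrial coenzyme Q-binding protein, rose by 2.13 ± 0.44 and 1.92 ± 0.41. Pdgfb, a growth factor, Crem, a cAMP-responsive factor, and Hk2, a hexokinase, rose by 1.63 ± 0.41, 1.63 ± 0.40 and 1.01 ± 0.26. Pdgfb and Crem lost their call in 5 of 11 alternative fits and Hk2, the single call among 13 glycolysis and hypoxia genes, in 7.

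Of the genes that fell, 4 changed by at least 1 on the log2 scale, among them Nr4a1, Ccl7 and A030001D20Rik. The number that fell was 20 in the main fit, 9 without 2 h n2 and 2 with the compared groups alone. The 2 h n2 sample had a TMM factor of 1.198, the highest of the 45 samples. Cdkn2d, a cyclin-dependent kinase inhibitor, had 132, 142 and 151 CPM at 0 h and 69.8, 55.1 and 85.8 CPM at 2 h (log2 fold change -0.99 ± 0.16, adjusted p = 4.75e-05, edgeR). At 24 h Cdkn2d was at 131 to 139 CPM. Rassf4, a RAS-association protein, went from 249, 227 and 256 CPM to 156, 156 and 143 CPM (-0.68 ± 0.13). Cdc23, a subunit of the anaphase-promoting complex, went from 40.9, 55.0 and 56.1 CPM to 25.4, 20.7 and 27.4 CPM (-1.0 ± 0.24, call lost in 5 of 11 alternative fits). In each of these the groups were separated. A030001D20Rik had the steepest fall among the separated genes (-1.48 ± 0.38), from 27, 13 and 4 counts to 7, 11 and 5, and lost its call in 9 of 11 alternative fits. Kxd1, Rab8a, Tnfaip8, Aspa, Cst6 and Mrpl17 fell by 0.80, 0.79, 0.77, 0.64, 0.56 and 0.53 on the log2 scale, and lost their call in 3, 7, 8, 5, 7 and 6 of the 11 fits.

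Msmo1, Idi1 and Fdft1 encode enzymes of sterol synthesis, and this group was noticed after the values were seen. Fdft1, squalene synthase, had 69.0, 70.1 and 77.1 CPM at 0 h and 33.9, 44.7 and 39.7 CPM at 2 h (log2 fold change -0.84 ± 0.17, adjusted p = 0.00348, edgeR). Msmo1 had 192, 150 and 158 CPM at 0 h and 104, 92.0 and 117 CPM at 2 h (-0.70 ± 0.13, adjusted p = 0.0012, edgeR). Idi1 overlapped, with 80.0, 83.1 and 31.5 CPM at 0 h and 44.4, 36.9 and 44.0 CPM at 2 h (-0.79 ± 0.18), and lost its call in 5 of 11 alternative fits. Over 22 tested genes of sterol synthesis and uptake, a list written after these 3 were seen, 0 rose, 3 fell and 19 did not pass, with a median log2 fold change of -0.38. Among those that did not pass, Hmgcs1 had a log2 fold change of 0.29.

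**Figure D3:**
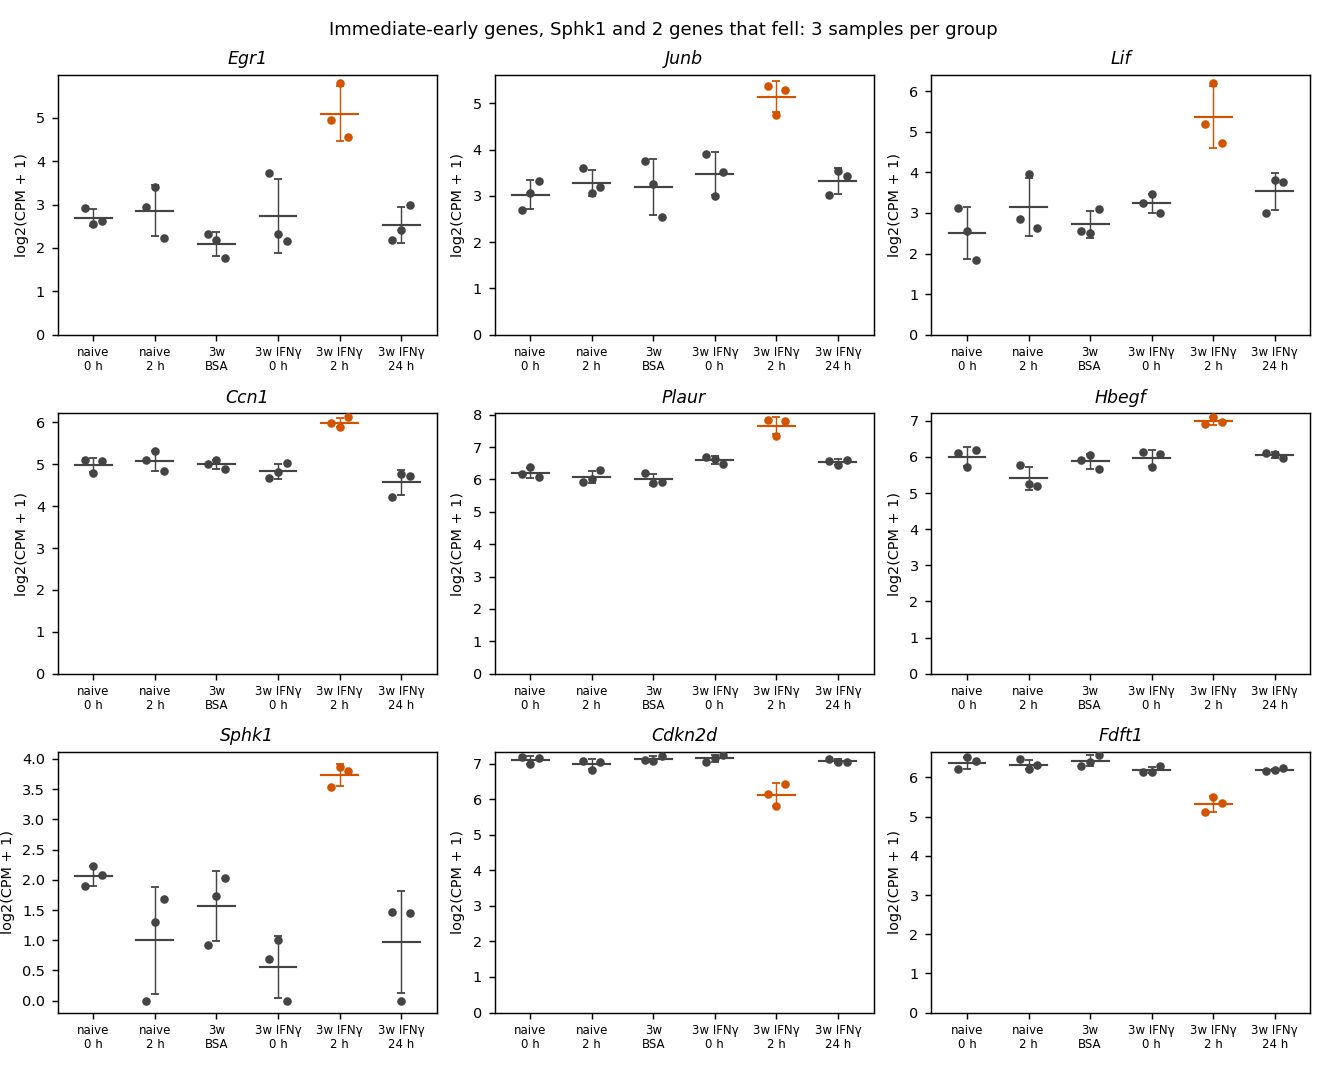
Levels of 9 genes as log2(CPM + 1) in each sample of 6 groups, with 3 points per group, a line at the mean and bars of 1 SD. Egr1, Junb, Lif, Ccn1, Plaur, Hbegf and Sphk1 are highest in the 2 h samples of week 3 (orange), and Cdkn2d and Fdft1 are lowest there.

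At 24 h of rechallenge, 0 genes passed against the same 0 h samples (edgeR), with 351 at an unadjusted p under 0.05 and 1 gene by DESeq2. The 2 comparisons share the 0 h samples. In weeks 1 and 2 the interferon list summed to 23200 to 26910 and 24150 to 24350 CPM at 24 h of rechallenge. At 0 h it summed to 10810 to 12410 and 15000 to 16080 CPM. In naive cells the sums were 6969 to 7685 CPM at 0 h and 15130 to 16440 CPM at 24 h. Of these, only week 3 had a 24 h range that overlapped its 0 h range. The 24 h samples of weeks 1 and 2 were not tested gene by gene. A direct comparison of 2 h with 24 h, which shares the 2 h samples, called 143 genes, 109 higher and 34 lower at 2 h (1.49% of those tested, 1.14% higher and 0.355% lower). In that comparison 41 of 138 interferon genes were higher and 1 lower at 2 h, and 16 of 61 immediate-early genes were higher. The log2 difference of 2 h over 24 h was 2.60 ± 0.17 for Irf1, 2.18 ± 0.13 for Gbp2, 2.83 ± 0.39 for Parp14 and 1.42 ± 0.19 for Ccn1. Cd274 differed by 3.77 ± 0.51 (adjusted p = 1.47e-06, edgeR), more than against 0 h. Genes past the threshold against 24 h but not against 0 h included Gbp11, with 0, 0 and 0.575 CPM at 24 h and 5.64, 12.3 and 10.8 CPM at 2 h, and Socs3 (1.85 ± 0.51, adjusted p = 0.0462, edgeR). On the lower side, Ndp, Slc5a3, Shroom2, Tmem161b and A730017L22Rik fell by 1.36, 1.16, 1.29, 1.09 and 2.75 relative to 24 h. Their adjusted p values against 0 h ran from 0.146 (A730017L22Rik) to 0.743 (Ndp).

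The same 2 h exposure in naive cells, which shares no sample with week 3, called 23 genes, all higher (0.24% of those tested). They included 17 of the 138 interferon genes and 0 of the 61 immediate-early genes, whose median log2 fold change there was 0.07. Of the 32 interferon genes that rose at week 3, 16 passed in naive cells at 2 h. Of the 15 immediate-early genes none did, and of the 37 other genes 3 did. The median log2 fold change of the 32 interferon genes was 2.05 at week 3 and 2.60 in naive cells. That of the 15 immediate-early genes was 1.25 and 0.08, and that of the 37 other genes 1.26 and 0.14. These medians favour week 3, because the genes were chosen there.

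The difference between both 2 h responses was tested as an interaction, and 11 of 9589 genes passed (0.115%, with 0.0417% larger and 0.073% smaller at week 3). For 7 interferon genes the fold change was smaller at week 3, among them Irgm2, Iigp1, Igtp, Gbp2, Gbp7 and Irgm1. In these genes every 0 h value of week 3 was above every naive 0 h value. The share of all genes tested with that separation was not counted, and the part of the starting level in the smaller change was not tested. Against 3 weeks of BSA, the same 0 h samples of week 3 differed in 93 genes (0.97%), 69 higher (0.72%) and 24 lower (0.25%). Iigp1 went from 1.64, 4.88 and 1.29 CPM to 65.8, 86.3 and 69.0 CPM in naive cells, and from 240, 229 and 252 CPM to 1252, 983 and 1302 CPM at week 3. Gbp2 went from 3.82, 7.33 and 5.79 CPM to 89.8, 74.6 and 80.1 CPM in naive cells, below its 0 h level at week 3. For Hbegf, Plaur, Sphk1 and Coq10b the change was larger at week 3. Mean 0 h levels of Sphk1 and Coq10b were 0.537 and 3.89 CPM at week 3, below 3.20 and 14.1 CPM in naive cells. Their naive log2 fold changes were -1.50 ± 0.69 and -0.53 ± 0.34. The part of the lower start and of the naive change in these differences was not tested. Hbegf had 68.2, 51.3 and 72.1 CPM in naive cells at 0 h and 53.4, 37.3 and 35.6 CPM at 2 h (-0.60 ± 0.18, adjusted p = 0.383, edgeR). For the other 13 immediate-early genes that rose at week 3 the difference did not pass. For Egr1 it was 1.91 ± 0.71 (adjusted p = 0.608, edgeR) and for Ccn1 1.17 ± 0.29 (adjusted p = 0.125, edgeR). For Irf1 it was -1.29 ± 0.31 (adjusted p = 0.0992, edgeR) and for Cxcl10 1.10 ± 0.90 (adjusted p = 0.878, edgeR).

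**Figure D4:**
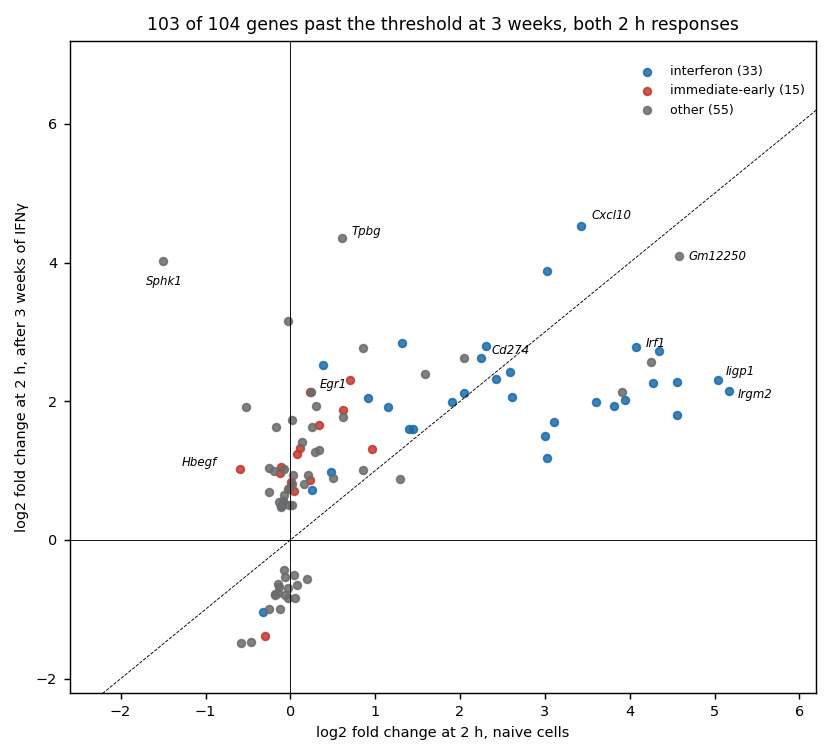
Log2 fold change at 2 h in naive cells (x axis) and at week 3 (y axis) for 103 of the 104 genes past the threshold at week 3, coloured by class, with the line of equal change dashed. Interferon genes spread to the right, whereas most immediate-early and other genes lie near 0 on the naive axis.

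Rechallenge for 2 h was also made in weeks 1 and 2, each against its own 0 h samples. In week 1, 59 genes passed, 48 higher and 11 lower (0.615%, 0.501% and 0.115%), among them 23 interferon and 8 immediate-early genes higher. In week 2, 41 genes passed, 40 higher and 1 lower (0.428%, 0.417% and 0.0104%), among them 21 interferon and 5 immediate-early genes higher. Of the interferon genes that rose in week 3, 21 of 32 passed upwards in week 1 and 19 of 32 in week 2. For immediate-early genes these were 7 and 4 of 15, and for other genes 10 and 9 of 37. Junb was higher by 3.07 ± 0.34 in week 1 and 2.03 ± 0.31 in week 2, against 1.65 ± 0.36 in week 3. Ccn1 was higher by 1.56 ± 0.20, 1.06 ± 0.20 and 1.25 ± 0.21, and passed in all 3 weeks. Plaur passed in week 2 (0.87 ± 0.15) and had a log2 fold change of 0.17 ± 0.16 in week 1 (adjusted p = 0.73, edgeR). Parp14 rose by 2.02 ± 0.42 in week 1 and had a log2 fold change of 1.17 ± 0.40 in week 2 (adjusted p = 0.399, edgeR). No gene passed the test of the difference between the week 3 and week 2 responses (edgeR), with 625 at an unadjusted p under 0.05 and 5 by DESeq2, so the larger count at week 3 is not shown to be a larger response.

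**Figure D5:**
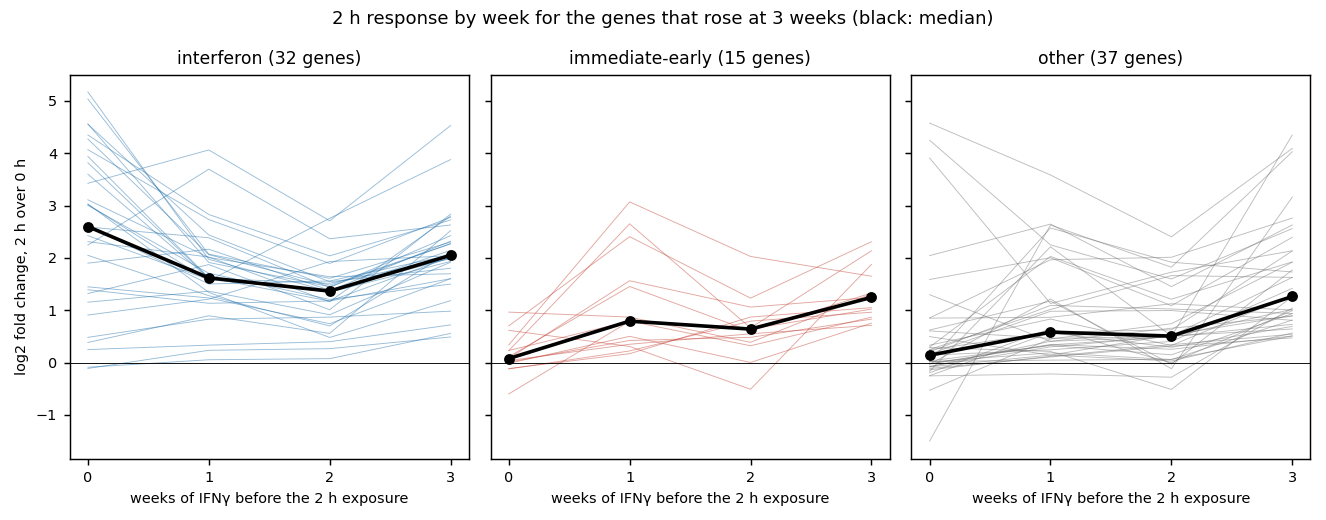
Log2 fold change of 2 h over 0 h (y axis) after 0, 1, 2 and 3 weeks of IFNγ (x axis, 0 being naive cells) for the genes that rose at week 3, with thin lines for single genes (1 immediate-early gene not drawn) and the median of all of them in black, in panels of 32 interferon, 15 immediate-early and 37 other genes. The interferon median is 2.60, 1.62, 1.37 and 2.05, and the immediate-early median is 0.08, 0.79, 0.64 and 1.25, with the week 3 values favoured by the choice of genes.

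Lists of other processes gave few calls at 2 h of week 3. None of 20 cytosolic ribosomal protein genes, 17 respiratory chain genes, 14 ER stress and ATF4 genes or 8 heat shock genes passed. Among 23 genes of replication and mitosis, Tk1, thymidine kinase, fell with overlapping groups. None of the 4 tested melanocyte lineage markers passed. Of other cell types, 1 haematopoietic, 1 endothelial and 2 fibroblast markers were tested and none passed, and no colon epithelium marker could be tested. The share of mitochondrial counts was 5.36 to 5.99% at 2 h and 6.09 to 6.46% at 0 h, and its part in the results was not tested.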

How the data were processed

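Libraries were made by a 3′ tag method (digital gene expression), which reads each transcript near its end. Per the labels, the RNA was column-purified in triplicate. The values deposited by the authors are raw counts per gene for 90 samples and 53697 genes, and the submitters' processing notes name Salmon 0.13.1 and mm10. The counting strand and any use of molecular identifiers are not given in the sources used here. The study also set aside 1 YUMM2.1 sample that it does not name.

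Counts of the 45 YUMM2.1 samples (15 groups of 3) were fitted together with edgeR 4.0.16 in R 4.3.3: filterByExpr by group, TMM scaling and the quasi-likelihood test, with Benjamini-Hochberg adjustment over 9589 genes and a threshold of 0.05. SE is the log2 fold change divided by the square root of F. The study describes its in vitro replicates in general as independent, but the labels do not say how the 3 samples of a group were grown, so p values measure the spread between these samples. Counting intervals (95%) and floors cover counting error only. Identifiers matched a symbol in 53668 cases. Positions are from GENCODE on GRCm38.

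Genes were classed by an interferon list (213 names) and an immediate-early list (96 names), the interferon list first. Every called gene was named, except that some items are not reported here. Values were given for the 14 interferon, 14 immediate-early, 12 other higher and 12 other lower called genes with the largest change and no overlap, for a fixed set of genes, and for the 6 largest each way in the interaction and against 24 h. Other genes given values were chosen after their values were seen. The members and lists were chosen with earlier results of these data known. Alternatives were DESeq2 1.42.0, library totals, no count filter, the compared groups alone, a replicate block, other thresholds and leaving out each sample. The scripts were tested on simulated data. No pair of samples within a YUMM2.1 group agreed within sampling noise (chi-square per degree of freedom 2.14 to 8.58). Pairs across groups were not checked in this way.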

Additional observations from a re-analysis of the deposited data

Results flagged for a closer look

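The 2 h response differed between week 3 and naive cells in 11 genes by the interaction test (edgeR, adjusted p under the threshold). Values, given for 10 of them, are the week 3 log2 fold change less the naive one. Among interferon genes the difference was -3.03 for Irgm2, -2.73 for Iigp1, -2.29 for Igtp, -1.92 for Gbp2, -1.89 for Gbp7 and -1.50 for Irgm1. Each of these had higher CPM in every 0 h sample of week 3 than in every naive 0 h sample. How many of all genes tested show the same was not counted, and its part in the difference was not tested. Among the remaining genes the difference was 1.16 for Plaur, 1.62 for Hbegf, 2.45 for Coq10b and 5.53 for Sphk1. Sphk1 and Coq10b rest on 1, 1 and 0 and on 6, 8 and 0 counts at 0 h of week 3. Their mean levels there, 0.537 and 3.89 CPM, were below those of naive 0 h, 3.20 and 14.1 CPM. The part of this in the difference was not tested.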

How the results depend on the processing

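The count of genes changed at 2 h of week 3 was 172 (128 higher, 44 lower) at an adjusted p of 0.1, 64 with a log2 fold change of at least 1 (4 lower), 169 with no count filter (130 higher, 39 lower), 38 with the compared groups alone (36 higher, 2 lower), and between 60 and 109 with 1 sample left out (49 to 82 higher, 9 to 27 lower). Interferon genes that rose numbered 22 to 32 and immediate-early genes 7 to 14 with 1 sample left out, and immediate-early genes 5 with the compared groups alone. Other genes that rose numbered 70 at 0.1, 22 at the fold limit, 66 with library totals, 72 unfiltered, 7 with the compared groups alone and 16 to 37 with 1 sample left out. At 24 h DESeq2 called 1 gene and the unfiltered fit 27. Between 2 h and 24 h there were 91 at the fold limit, 67 with the compared groups alone and 73 to 149 with 1 sample left out (89 without 2 h n2, 80 without 24 h n1, 73 without 24 h n2). The naive 2 h count was 55 unfiltered and 18 to 23 with 1 sample left out. The difference from naive cells was 21 by DESeq2, 20 with library totals, 49 unfiltered and 9 to 15 with 1 sample left out, and the difference from week 2 was 5 by DESeq2, 1 with library totals and 28 unfiltered. Unfiltered counts were 81 for week 2, 136 for week 1 (39 with the compared groups alone) and 186 for 3 weeks of IFNγ against BSA. The causes were not tested. Samples of 0 h and 2 h with the same replicate number did not deviate together (correlations -0.04, 0.08 and 0.01, and not every sample correlated best with its own number), so the numbers were not taken as pairs. The replicate block called 97 genes, 96 of them shared with the 104, and DESeq2 called 119, 100 of them shared. Over the 11 alternative fits of the 115 genes given values or named, 936 results kept their side of the threshold, 322 lost it and 1 gained it (A730017L22Rik without 0 h n2). No result that passed in the main or the alternative fit changed sign. Sign changes of genes that passed in neither were not counted, and results with no value in a fit were left out. The median log2 fold change of all genes was 0.03 under TMM, 0.09 under library totals and 0.04 under DESeq2. The 274719 counts of 0 h n3 limit the low genes.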
